A study of Mus musculus with 2 samples.

Results

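Sphingosine-1-phosphate and lysophosphatidic acid are signaling lipids that cells make, export and sense through G protein-coupled receptors. The genes described here are 5 that make, export or break down these lipids (Sphk1, Sphk2, Spns2, Sgpl1 and Enpp2) and 5 that encode receptors (S1pr1, S1pr2, S1pr3, S1pr4 and Lpar1). They were taken as every non-control spot of the arrays whose gene name is on that list, which gave 14 probes for 10 genes of the 37008 gene names measured. All 10 genes were well above background on both arrays, as were 22152 genes in all.

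The tumor-draining group is 1 array of cells from the lymph nodes that drained a 4T1 mammary carcinoma, taken 2 weeks after the tumor was placed in the mammary gland. The normal group is 1 array of cells from lymph nodes of mice without a tumor. In both groups the cells came from female mice and were sorted as CD45-negative, CD45 being the surface antigen of leukocytes that the gene Ptprc encodes. The labels give C57BL/6 mice, whereas 4T1 is known as a BALB/c line, and they do not say how many mice or nodes went into a sample. With 1 array per group there is no replicate of mouse or sort, no test was run, and a gene is called lower or higher in the tumor-draining sample only by the size of its difference, which must reach 2-fold. Any difference between the tumor-draining and normal groups cannot be told apart from a difference between these 2 samples.

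In lymph nodes, sphingosine-1-phosphate is kept low inside the tissue and high in lymph and blood, and lymphocytes follow that gradient out of the node. Sphingosine kinases make the lipid, the exporter Spns2 releases it from endothelial cells, and the lyase Sgpl1 degrades it irreversibly. Autotaxin, the secreted enzyme encoded by Enpp2, makes lysophosphatidic acid outside cells and is known in lymph nodes from high endothelial venules and fibroblastic stroma.

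The Enpp2 probes are shown first because they did not move together, and the S1pr4 probe and the second Lpar1 probe are shown because S1pr4 lies next to the 2-fold threshold and Lpar1 was read at separate places. Each is the 60-base oligonucleotide printed on the array, 5′ to 3′, as given in the scanner files, with its mm9 position. Capitals mark a stop codon that closes the only open reading frame of the first Enpp2 probe, which thus covers the end of the autotaxin coding sequence.
Enpp2 probe 1, chr15:54670921-54670980, minus strand: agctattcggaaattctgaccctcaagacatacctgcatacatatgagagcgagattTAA
Enpp2 probe 2, chr15:54700197-54700256, minus strand: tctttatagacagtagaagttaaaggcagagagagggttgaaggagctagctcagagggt
Enpp2 probe 3, chr15:54666799-54666858, minus strand: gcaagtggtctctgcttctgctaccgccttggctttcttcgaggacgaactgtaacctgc
Lpar1 probe 2, chr4:58499672-58499731, minus strand: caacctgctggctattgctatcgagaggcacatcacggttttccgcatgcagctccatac
S1pr4, chr10:80961501-80961560, minus strand: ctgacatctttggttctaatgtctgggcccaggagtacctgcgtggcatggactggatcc

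Of the 10 genes, 5 were lower in the tumor-draining sample by 2-fold or more and 0 were higher by as much. The background to this count is that 15.9% of all genes measured on both arrays were lower by 2-fold or more and 11.1% were higher. The lower genes were the exporter Spns2, autotaxin (Enpp2), the kinase Sphk1 and the receptors S1pr3 and Lpar1. The other kinase Sphk2, the lyase Sgpl1 and the receptors S1pr1, S1pr2 and S1pr4 were within 2-fold. Markers of fibroblastic, endothelial and mural cells were mostly lower and lymphocyte markers mostly higher on the same array, with values given further on, and their part in these differences was not tested. In a bulk sample of sorted cells, fewer cells of a type and less RNA per cell cannot be told apart.

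**Figure D1:**
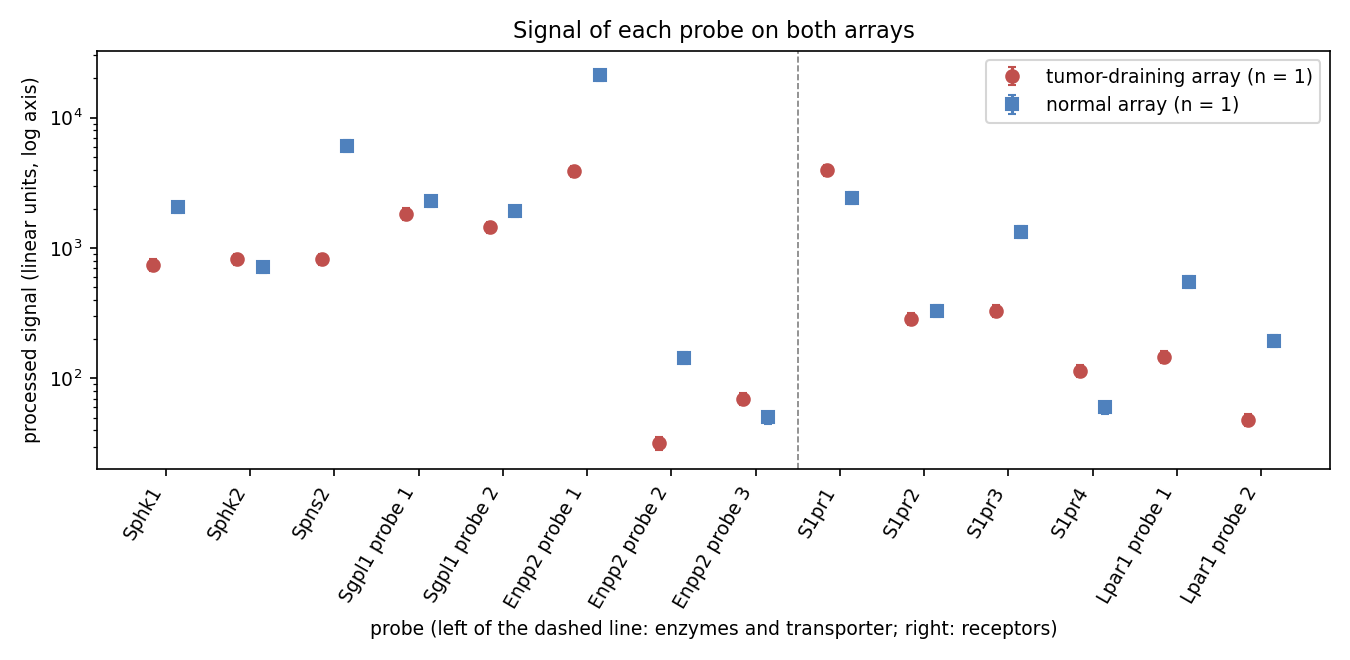
Processed signal (linear units, log axis) of each of the 14 probes on the tumor-draining array (circles) and the normal array (squares), with enzymes and transporter left of the dashed line and receptors right of it. Bars are the signal error given by the scanner software, and probes of a gene are numbered from the brightest. Spns2 and Enpp2 probe 1 show the widest gaps, Spns2 with 820 units on the tumor-draining array against 6110 on the normal array and Enpp2 probe 1 with 3903 on the tumor-draining array against 21197 on the normal array.

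Sphk1 and Sphk2 encode the kinases that phosphorylate sphingosine. Sphk1 had a signal of 745 ± 74.6 on the tumor-draining array and 2056 ± 206 on the normal array, where ± is the error that the scanner software gives to the spot. After each array was scaled to its 75th percentile, Sphk1 was 2.64-fold lower after tumor inoculation, a log2 difference of -1.40 ± 0.20. The error here is that of both spots combined. It was not measured on replicates and so holds no variation between mice or sorts. For every probe described here it was nearly the same, from 0.20 to 0.22. Folds and log2 differences use this scaling unless another is named, so they differ a little from ratios of the printed signals, which are unscaled. Sphk2 had a signal of 817 ± 81.7 on the tumor-draining array and 714 ± 71.4 on the normal array, a log2 difference of 0.26 ± 0.20. The kinases thus differed unequally, the value of Sphk2 lying 1.66 ± 0.29 above that of Sphk1 on the log2 scale. The Sphk1 probe lies on chromosome 11 at 116397908 to 116397967 and the Sphk2 probe on chromosome 7 at 52965880 to 52965939, in mm9 as in all positions of probes given here. The files do not say whether a probe lies in an exon or an untranslated region.

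Spns2, the exporter, had the lowest difference of the 10 genes. Its signal was 820 ± 82.0 on the tumor-draining array and 6110 ± 611 on the normal array. After scaling, it was 7.14-fold lower after tumor inoculation, with a log2 difference of -2.84 ± 0.20. Of all genes above background on both arrays, 1.64% had a lower difference than Spns2. Its probe lies on chromosome 11 at 72265167 to 72265226. The lymphatic endothelial markers, which name a cell type known to use Spns2 in lymph nodes, had a median difference of -2.35, with a range from -2.87 to -1.22 that holds the value of Spns2. The ranges of the fibroblastic, blood endothelial, and pericyte and smooth muscle markers, given further on, hold it as well.

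Sgpl1, the lyase, was read by 2 probes that lie 71 bases apart and so report nearly the same stretch of RNA. Probe 1 had a signal of 1830 ± 183 on the tumor-draining array and 2277 ± 228 on the normal array. Probe 2 had a signal of 1447 ± 145 on the tumor-draining array and 1921 ± 192 on the normal array. Their log2 differences were -0.25 ± 0.20 and -0.35 ± 0.20, both well within 2-fold. Relative to Spns2 the value of Sgpl1 was higher by 2.58 ± 0.29, and relative to Sphk1 by 1.15 ± 0.29 on the log2 scale. Comparisons of this kind between genes do not depend on the constant by which an array is scaled.

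Enpp2 was read by 3 probes on the minus strand of chromosome 15. Probe 1, at the end of the coding sequence and the brightest, had a signal of 3903 ± 390 on the tumor-draining array and 21197 ± 2120 on the normal array, 5.20-fold lower with a log2 difference of -2.38 ± 0.20. Probe 2, which the files name from a cDNA clone, lies 29.3 kb further 5′ and had a signal of 32.0 ± 3.63 on the tumor-draining array and 144 ± 14.5 on the normal array, a difference of -2.11 ± 0.22. Probe 3, also named from a cDNA clone, lies 4.12 kb further 3′ and differed in sign. Its signal was 69.9 ± 7.22 on the tumor-draining array and 50.3 ± 5.29 on the normal array, a difference of 0.54 ± 0.21. Probe 3 differed from probe 1 by 2.92 on the log2 scale. Over the 7599 genes with more than 1 probe above background on both arrays, the median SD between probes of a gene was 0.27. An SD is a smaller measure than the difference between the most distant probes, so these values are not directly comparable. The mean over the 3 probes was -1.32, still past the 2-fold line, and only probe 1 is assigned in the files to the RefSeq transcripts of Enpp2. The high endothelial venule markers had a median difference of -1.37 and the fibroblastic reticular cell markers one of -1.95.

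**Figure D2:**
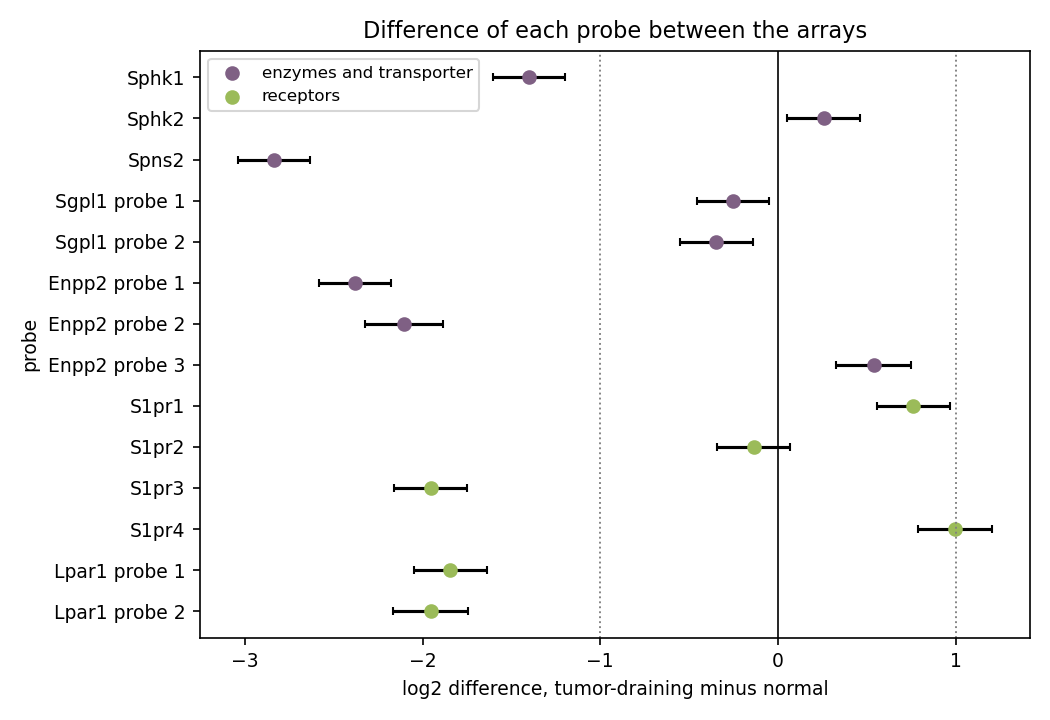
Log2 difference (tumor-draining minus normal) of each of the 14 probes, with horizontal bars for the combined spot error of both arrays and dotted lines at 2-fold. Spns2, Enpp2 probes 1 and 2, Sphk1, S1pr3 and both Lpar1 probes lie left of the lower line, S1pr4 lies just under the upper line at 0.99, and Enpp2 probe 3 lies apart from the other two at 0.54.

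The receptor genes differed among themselves. S1pr1, the receptor through which lymphocytes leave lymph nodes and which endothelial cells also carry, had a signal of 3950 ± 395 on the tumor-draining array and 2432 ± 243 on the normal array. The signal was 1.69-fold higher after tumor inoculation, a log2 difference of 0.76 ± 0.20. S1pr4, a receptor known mainly from lymphocytes and other blood cells, was dim, with a signal of 114 ± 11.6 on the tumor-draining array and 59.8 ± 6.22 on the normal array. Its difference of 0.99 ± 0.21, a 1.99-fold higher signal, lay just under the threshold. S1pr2, which couples to G12/13 proteins and restrains cell migration, had a signal of 287 ± 28.7 on the tumor-draining array and 329 ± 33.0 on the normal array, and its difference of -0.14 was smaller than its spot error of 0.20.

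S1pr3, a receptor known from smooth muscle and endothelium, had a signal of 331 ± 33.1 on the tumor-draining array and 1338 ± 134 on the normal array. It was 3.87-fold lower, with a difference of -1.95 ± 0.20. Lpar1, a receptor of lysophosphatidic acid that fibroblasts carry, was read by 2 probes that lie 50.9 kb apart. Probe 1 had a signal of 147 ± 14.8 on the tumor-draining array and 550 ± 55.1 on the normal array. Probe 2, printed above, had a signal of 48.0 ± 5.07 on the tumor-draining array and 194 ± 19.5 on the normal array. The differences of the Lpar1 probes, -1.84 ± 0.20 and -1.95 ± 0.21, lay within the spot error of each other and close to that of S1pr3.

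Set against each other on the log2 scale, the value of S1pr1 lay 2.71 ± 0.29 above that of S1pr3 and 0.90 ± 0.29 above that of S1pr2. The value of S1pr4 lay 0.23 ± 0.29 above that of S1pr1, which is within the spot error. Lpar1 lay 0.11 ± 0.29 above S1pr3, also within it. The order of differences was therefore S1pr4 and S1pr1 at the top, S1pr2 between, and Lpar1 and S1pr3 at the bottom. The probes of S1pr1, S1pr2 and S1pr3 lie on chromosome 3 at 115414020 to 115414079, on chromosome 9 at 20770729 to 20770788 and on chromosome 13 at 51517079 to 51517138. Lpar1 probe 1 lies on chromosome 4 at 58448724 to 58448783.

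By role, the median difference of the 5 enzyme and transporter genes was -1.40, with 3 at least 2-fold lower, and that of the 5 receptor genes was -0.14, with 2 at least 2-fold lower. The median over all genes above background on both arrays was 0.12, and 15.9% of them were at least 2-fold lower. Both role medians change with the scaling, to values given further on. Both groups spanned a wide range, from -2.84 to 0.26 for enzymes and transporter and from -1.95 to 0.99 for receptors, so the ranges overlapped over most of their length. With 5 genes each and 1 array per group, no difference between the roles was tested.

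The scaling of the arrays decides some of these calls. Spike-in RNA, read by 8 probes below a signal of 60000, had a median difference of -0.78, with single probes from -0.94 to 0.33, and scaling to it adds that amount to every gene. Scaled that way, 4 of the 10 genes were lower by 2-fold or more (Spns2, Enpp2, S1pr3 and Lpar1) against 8.41% of all genes, and 3 were higher by as much (S1pr4, S1pr1 and Sphk2) against 44.4% of all genes. Sphk1 was then at -0.62, and S1pr2 and Sgpl1 turned in sign, to 0.64 and 0.53. Of all calls, 84.1% were then higher, against 41.0% with the 75th percentile scaling. Spns2, Enpp2, S1pr3 and Lpar1 were thus lower by 2-fold or more under every one of the 11 settings run, the scaling above included. Not all settings could change these values. The filters on background and brightness leave a gene's value as it is, as do the probe means for Spns2 and S1pr3, which have 1 probe each. The direction of Sgpl1 and S1pr2 depends on the scaling.

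**Figure D3:**
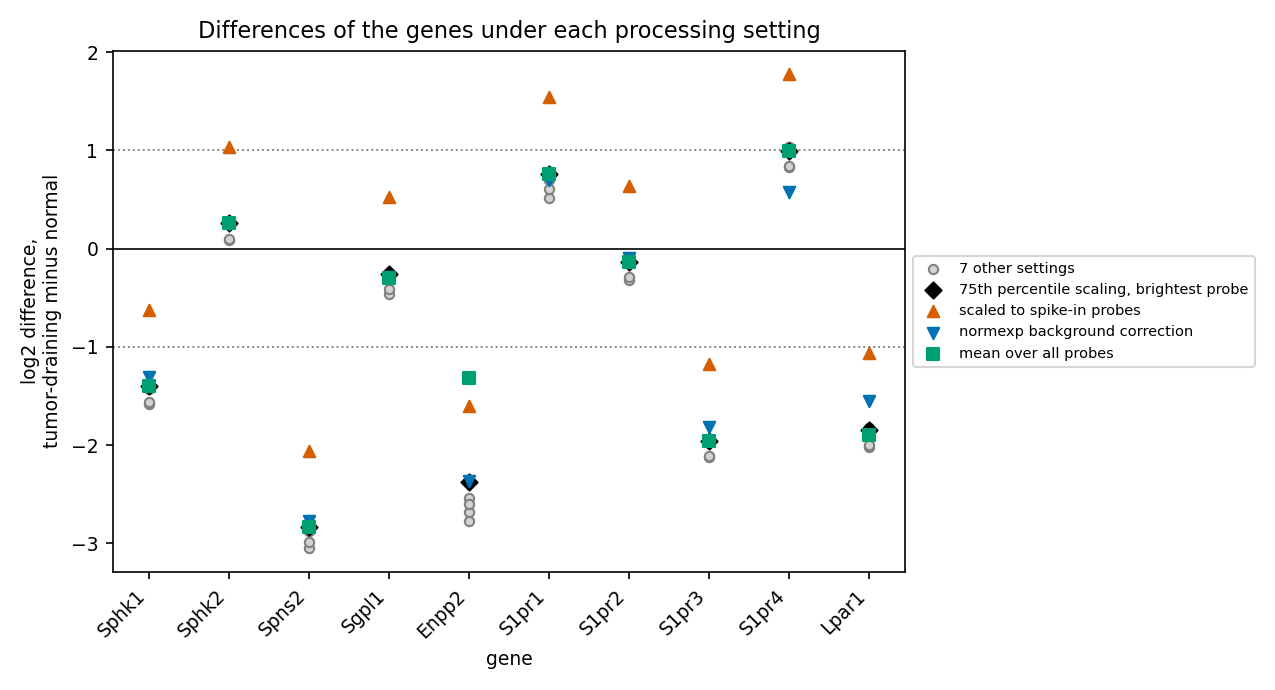
Log2 difference (tumor-draining minus normal) of each gene under 11 processing settings, with dotted lines at 2-fold. Spns2, Enpp2, S1pr3 and Lpar1 stay below the lower line in all settings, while scaling to spike-in probes (triangles) lifts every gene by the same amount and takes S1pr4 to 1.77 and S1pr1 to 1.54.

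Other receptors of the same lipids gave a mixed picture. Of 6 further receptor genes, 5 passed the background mark on both arrays. Of these, 1 was lower by 2-fold or more and 1 higher, against 15.9% and 11.1% of all genes. Lpar4, a receptor of lysophosphatidic acid, had a signal of 40.4 on the tumor-draining array and 211 on the normal array, 5.01-fold lower. S1pr5, known from natural killer cells, had a signal of 36.4 on the tumor-draining array and 15.8 on the normal array, a difference of 1.27 that shrank to 0.42 with normexp background correction. Lpar6 had 2361 on the tumor-draining array and 2524 on the normal array, a difference of -0.03. Lpar2 and Lpar5 had differences of -0.15 and 0.25, and Lpar3 was not well above background on the tumor-draining array, at 7.63 against 9.96 on the normal array.

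Genes that remove or carry these lipids came next. Of 9 genes, 8 passed the background mark on both arrays. Of these, 3 were lower by 2-fold or more and 0 higher, against 15.9% and 11.1% of all genes. Plpp3, a cell surface phosphatase that degrades lysophosphatidic acid and sphingosine-1-phosphate, had a signal of 2277 on the tumor-draining array and 9197 on the normal array, 3.87-fold lower. Plpp1, of the same family, had 597 on the tumor-draining array and 2157 on the normal array, with probes at -1.79 and -2.24. Spns3, a relative of Spns2, had 247 on the tumor-draining array and 742 on the normal array, a difference of -1.53. The intracellular phosphatase Sgpp1 was at 0.20 on its brightest probe, the lysosomal transporter gene Spns1 at 0.02, and Sgpp2 was not well above background on either array. After loess, Sgpp1 was at -0.09 and Spns1 at -0.32, whereas the mean over all probes put Sgpp1 at 1.08 and the count of higher genes at 1. Of the 2 Sgpp1 probes only 1 was above background on both arrays, and that mean includes the other.

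Genes that supply ceramide and sphingosine went both ways. Of 17 genes, 16 passed the background mark on both arrays, with 3 lower by 2-fold or more, 1 higher and a median of -0.24 (0.54 when scaled to the spike-ins), against 15.9% lower and 11.1% higher over all genes. The ceramidases Asah1, with 464 on the tumor-draining array and 1368 on the normal array, and Asah2, with 30.1 on the tumor-draining array and 102 on the normal array, had differences of -1.50 and -1.70. Degs1, the desaturase that completes ceramide synthesis, had 1746 on the tumor-draining array and 4463 on the normal array, a difference of -1.29. Sgms1, which turns ceramide into sphingomyelin, was higher on its brightest probe, with 1513 on the tumor-draining array and 589 on the normal array, although its 4 probes above background ranged from 0.39 to 1.42 and the mean over all of its probes was 0.78. The subunits of the first enzyme of the pathway, Sptlc1 and Sptlc2, were at -0.37 and -0.31 on their brightest probes, while the other probe of each was at 0.12 and -1.55. With normexp background correction Asah2 was at -0.82.

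Of 7 genes for the supply and removal of lysophosphatidic acid other than Enpp2, 5 passed the background mark on both arrays. Of these 1, Gdpd1, was lower by 2-fold or more, with a narrow margin (-1.01, or -0.53 with normexp background correction). Over all genes 15.9% were lower by as much. Pla1a, a secreted phospholipase, had a signal of 2373 on the tumor-draining array and 2577 on the normal array, a difference of -0.06. Agpat2, which turns lysophosphatidic acid into phosphatidic acid, was at -0.56. On the brightest probes the differences of this list thus lay between -1.01 and 0.05, whereas Enpp2 probe 1 was at -2.38. Other probes narrow this contrast. Agk was at -0.29 on its brightest probe and at 0.61 on another above background. Enpp2 probe 3 was at 0.54 and the mean over the Enpp2 probes was -1.32.

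Genes that couple the receptors or control exit from the node went both ways. All 16 genes passed the background mark on both arrays. Of these, 3 were lower by 2-fold or more and 7 higher, against 15.9% and 11.1% of all genes. After loess 6 were higher. Scaled to the spike-ins the counts were 1 lower and 11 higher, against 8.41% and 44.4% of all genes. The higher genes included several known from lymphocytes. Ccr7, the receptor that holds lymphocytes in the node, had a signal of 52409 on the tumor-draining array and 11915 on the normal array, 4.59-fold higher. Rgs1, which damps G protein signaling, was 7.85-fold higher, with 3002 on the tumor-draining array and 399 on the normal array. Cd69, whose product takes S1pr1 off the cell surface, had 4976 on the tumor-draining array and 1424 on the normal array, a difference of 1.87, or 2.56 on its other probe. Klf2, a transcription factor known to drive S1pr1, had 30726 on the tumor-draining array and 16606 on the normal array, a difference of 0.95, and Foxo1, known to act upstream of Klf2, was at 0.80.

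The coupling proteins split in the same list. Gna13, the G protein chain that S1pr2 uses, had 4126 on the tumor-draining array and 1732 on the normal array, a difference of 1.31, while its relative Gna12 had 989 on the tumor-draining array and 2578 on the normal array, a difference of -1.32. Arhgef1, an exchange factor known as the form of hematopoietic cells, was at 1.23 (0.79 after loess), and Arhgef12 was at -1.88 and Arhgef11 at -0.33. Gnaq was at -1.43, with 253 on the tumor-draining array and 710 on the normal array. Arrb2, an arrestin that takes receptors off the surface, was at 1.34, and the receptor kinase Grk2 at 0.53. Gnai2 and Gnai3, the chains through which S1pr1 signals, were at 0.23 and -0.14, and Gnai2 turned to -0.23 after loess.

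Over these 5 lists, 50 of 55 genes were above background on both arrays, with 11 lower by 2-fold or more and 9 higher, against 15.9% and 11.1% of all genes. Scaled to the spike-ins the counts were 4 and 18, against 8.41% and 44.4% of all genes, the 4 being Lpar4, Plpp1, Plpp3 and Arhgef12.

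**Figure D4:**
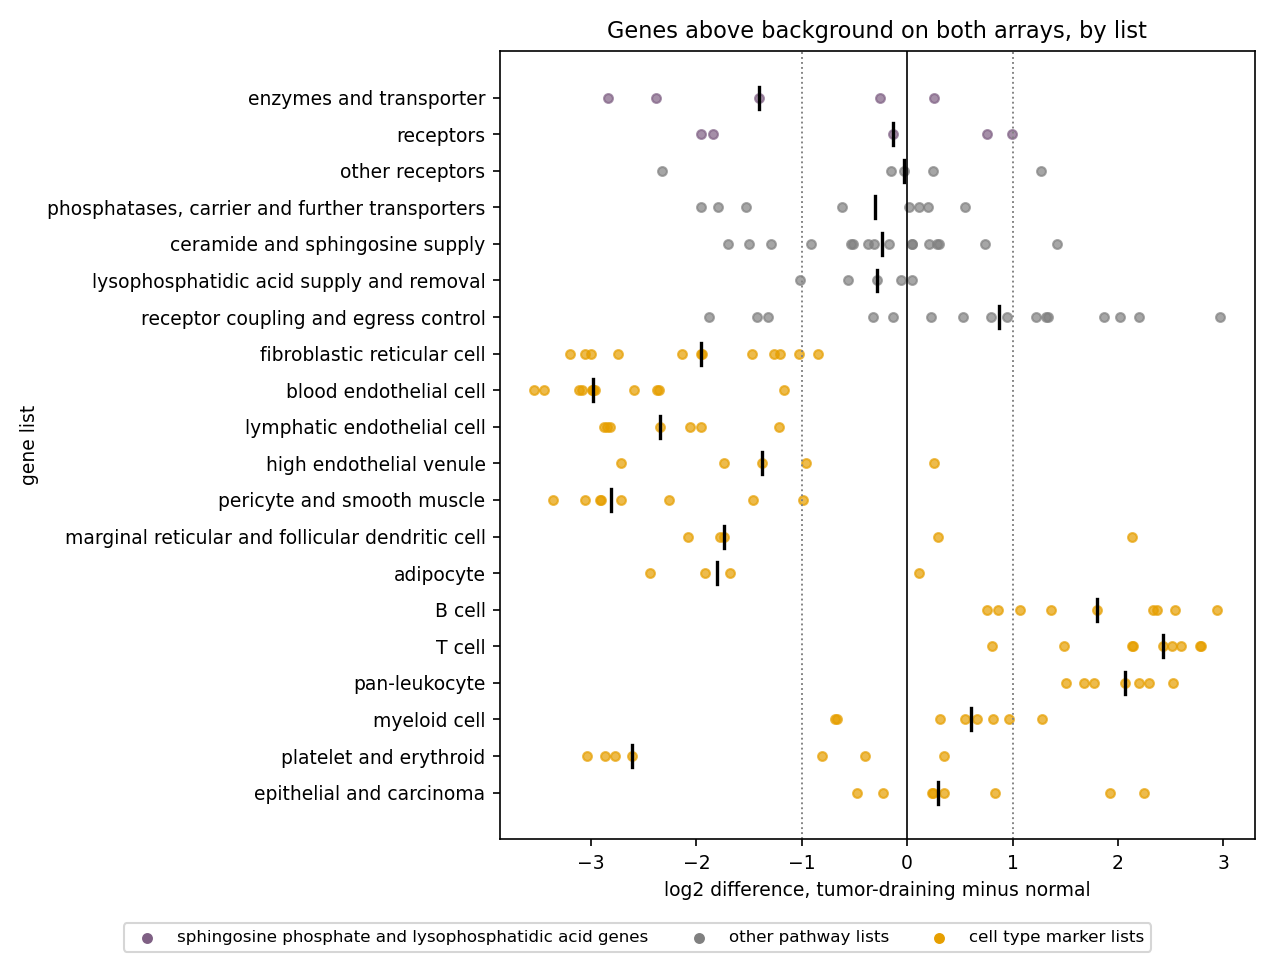
Log2 difference (tumor-draining minus normal) of each gene above background on both arrays, 1 row per list, with black ticks at the medians and dotted lines at 2-fold. The enzyme and transporter row has its median at -1.40 and the receptor row at -0.14, the blood endothelial row at -2.98, the T cell row at 2.43.

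The cell type markers on the same arrays were as follows, with all of them counted over genes above background on both arrays and no defining marker at 0. Over all such genes, 15.9% were lower by 2-fold or more and 11.1% were higher. Of 12 markers of fibroblastic reticular cells 11 were lower by 2-fold or more, with a summed signal of 165332 on the tumor-draining array and 434704 on the normal array, from Ccl19 at -3.20 to Col3a1 at -0.85. All 12 blood endothelial markers were lower, with sums of 7148 on the tumor-draining array and 56833 on the normal array, from Emcn at -3.54 to Pecam1 at -1.17. All 7 lymphatic endothelial markers were lower, with sums of 3576 on the tumor-draining array and 18768 on the normal array, from Flt4 at -2.87 to Reln at -1.22. Of 8 pericyte and smooth muscle markers 7 were lower, with sums of 10866 on the tumor-draining array and 33927 on the normal array, from Des at -3.36 (0.42 on its other probe) to Acta2 at -0.99. Scaled to the spike-ins, 7 fibroblastic, 11 blood endothelial, 6 lymphatic endothelial and 6 pericyte and smooth muscle markers were lower by that much. Over all genes 8.41% were. Sphk1, S1pr3, Lpar1, Enpp2 and Spns2 lay, in the 75th percentile scaling, within the range of each of these lists. The values thus single out none of these cell types, and the level of these genes per stromal cell cannot be read from these arrays.

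Pan-leukocyte, T cell and B cell markers lay on the other side, while myeloid markers were mostly within 2-fold. Over all genes 11.1% were higher by 2-fold or more. All 7 pan-leukocyte markers were higher by 2-fold or more, with summed signals of 66499 on the tumor-draining array and 18637 on the normal array, and Ptprc was at 2.30. Of 9 T cell markers 8 were higher, with sums of 55548 on the tumor-draining array and 12978 on the normal array, from Cd247 at 0.81 to Cd28 at 2.79. Of 9 B cell markers 7 were higher, with sums of 63196 on the tumor-draining array and 26852 on the normal array, from Cd79b at 0.76 to Bank1 at 2.94. The differences of S1pr1 (0.76) and S1pr4 (0.99) both lay within the range of the B cell markers (0.76 to 2.94, median 1.80). That of S1pr4 also lay within the range of the T cell markers (0.81 to 2.79, median 2.43). S1pr1 was at the very edge of the B cell range, level with Cd79b, and below the lowest T cell marker, Cd247. Of 8 myeloid markers 1 was higher by 2-fold or more and 7 were within 2-fold, from Cd14 at -0.68 to Tyrobp at 1.28. S1pr1 and S1pr4 both also lay within this myeloid range, and below the lowest pan-leukocyte marker, Vav1 at 1.51. Scaled to the spike-ins, 7 pan-leukocyte, 9 T cell, 9 B cell and 6 myeloid markers were higher by 2-fold or more. Over all genes 44.4% were. The part of leukocyte RNA in the signals of S1pr1 and S1pr4 was not tested.

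Values of the remaining marker lists complete the account, against 15.9% of all genes lower by 2-fold or more and 11.1% higher. High endothelial venule markers had 3 of 5 at least 2-fold lower, from Ackr1 at -2.71 to Gcnt1 at 0.25. Marginal reticular and follicular dendritic cell markers had 3 of 5 lower and 1 higher, from Madcam1 at -2.08 to Cr2 at 2.13. Adipocyte markers had 3 of 4 lower, from Adipoq at -2.44 to Lep at 0.12. Plin1, the lowest of the 5 adipocyte markers listed, was not counted because it was above background on the normal array only. Its signal was 8.10 on the tumor-draining array and 72.4 on the normal array. Platelet and erythroid markers had 4 of 7 lower, from Hbb-b1 at -3.04 to Gp6 at 0.35, red cells and platelets being known stores of sphingosine-1-phosphate. Epithelial and carcinoma markers had 2 of 8 higher, from Cldn4 at -0.48 to Krt14 at 2.25. Scaled to the spike-ins, the high endothelial venule list had 1 lower and 1 higher, and the marginal reticular and follicular dendritic list 1 lower and 2 higher. The adipocyte list then had 2 lower, the platelet and erythroid list 4 lower and 1 higher, and the epithelial list 6 higher. With that scaling 8.41% of all genes were lower and 44.4% higher.

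The upstream sequences of S1pr3 and S1pr4 are shown because, among the 5 receptor genes chosen, these had the lowest and the highest difference. RefSeq windows of 250 bases before to 50 after a start (GRCm38.p6) were found for 8 of the 10 genes, in 15 windows. None was found for S1pr1 and Enpp2. The 250 upstream bases are printed, 5′ to 3′ on the strand of the gene, with capitals for the letters CACCC or their reverse complement, the core that Krüppel-like factors such as the Klf2 product are known to bind.
S1pr3, chr13:51408368-51408617, plus strand: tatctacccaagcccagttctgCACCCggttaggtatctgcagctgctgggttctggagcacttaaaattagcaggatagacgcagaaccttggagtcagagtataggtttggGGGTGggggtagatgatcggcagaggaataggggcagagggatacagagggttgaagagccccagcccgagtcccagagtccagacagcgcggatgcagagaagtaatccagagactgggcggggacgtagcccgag
S1pr4, chr10:81500138-81500387, minus strand: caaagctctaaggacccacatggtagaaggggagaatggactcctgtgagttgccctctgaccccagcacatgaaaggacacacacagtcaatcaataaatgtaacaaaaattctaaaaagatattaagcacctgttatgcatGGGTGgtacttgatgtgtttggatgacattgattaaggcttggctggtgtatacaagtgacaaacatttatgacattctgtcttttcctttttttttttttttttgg

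The S1pr3 sequence held 2 matches and 9 CG dinucleotides, with 56.4% G or C, and the S1pr4 sequence 1 match and 0 CG dinucleotides, with 38.8% G or C. Over both strands of the full 300-base windows, CACCC was found in 11 of the 15 windows of these genes and in 57.5% of 32851 windows of all genes. The 11 windows belong to 6 of the 8 genes. The GC box letters GGGCGG were found in 7 of the 15 windows, against 35.7% of all windows, the TATA letters TATAAA in 1 against 13.6%, and the E-box letters CACGTG in 2 against 7.15%. These are matches of letters only, several windows belong to alternative starts of the same gene and overlap, and matches of different motifs may share bases.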

How the data were processed

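Total RNA of the sorted cells was amplified and Cy3-labeled for 1-color Agilent arrays, 1 per group, per the labels' protocols. Intensities in the deposited scanner files are linear and had background removed by Feature Extraction 12.0.3.1 (protocol GE1_1200_Jun14) on a shared slide and scan, with positions on mm9, per the file headers. Feature Extraction 10.7 and limma are named by the submitters' processing notes. The authors' deposited table holds log2 values, with column medians of 4.86 (tumor-draining) and 4.85 (normal). Across 56603 probes its columns correlated at 0.9999 each with the log2 signals of the same arrays, and once sorted they differed by at most 0.17, so genes were not centered and a 1-color value has no direction. Its exact scale stays unknown, and it served as an alternative.

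From each log2 processed signal the array's 75th percentile over 59305 non-control spots was taken away, at 358 units (tumor-draining) and 374 units (normal). Spots flagged as outliers on either array were dropped, and no non-control spot was saturated. Each probe described here has 1 spot, and a gene was represented by its brightest probe. Names came from a RefSeq accession (32992 probes), a symbol (10224), a synonym (520) or the files alone (12867). The background mark is the scanner software's, on at least 50% of a probe's spots. It was held by 35570 probes (tumor-draining) and 36783 probes (normal). The number of arrays limits the precision. Over 300 probes printed 10 times, the median SD of the difference was 0.05, which covers printing and scanning alone.

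The genes, lists, 2-fold threshold and alternatives were chosen with earlier results of these data known. All 10 genes and any gene of the 5 pathway lists could be named, plus the highest and lowest of each marker list, Ptprc, Pecam1 and Pdpn (-1.96). Not every gene so named is reported here. The steps were tested on simulated data. Tools were Python 3.11.15, numpy 2.4.6, pandas 2.3.3, R 4.3.3 and limma 3.58.1.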

Additional observations from a re-analysis of the deposited data

How the results depend on the processing

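Alternatives were normexp background correction (offset 50), quantile and loess (span 0.3) normalization, scaling to the median of the probes that passed the background mark or to that of spike-in probes, the mean over a gene's probes (all, or those above background), no background filter, brighter genes only, and the authors' table. The count of genes at least 2-fold higher was 1 with quantile normalization and 1 in the authors' table, which is S1pr4 (1.04 in each), and 3 scaled to the spike-ins. Scaled to the spike-ins, the enzyme and transporter median was -0.62 and the receptor median 0.64, and the other pathway genes had 4 lower and 18 higher. Among brighter genes the receptor median was -0.99, since S1pr4 drops out. The other 52 of 60 values of these 6 results kept within 1.5 times the count or within 0.27, the median SD between probes. Part of this was fixed in advance, since the filters and the probe means cannot change the value of a gene with 1 probe. Over all genes, normexp gave 2421 lower and 1373 higher against 3532 and 2453, and spike-in scaling 1862 and 9838. Loess and scaling to probes above background gave 31.6% and 32.2% of calls as higher. The amounts of spike-in RNA are unknown, and the cause of its offset was not tested. S1pr4, at a signal of 59.8 on the normal array, was at 0.58 with normexp. No paired analysis was possible because each group has 1 array.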
